A study of Arabidopsis thaliana with 6 samples.

Results

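SQUAMOSA PROMOTER BINDING PROTEIN-LIKE (SPL) genes whose mRNA carries a site for the microRNA miR156 were followed in early embryos of Arabidopsis thaliana. They are SPL2 (AT5G43270), SPL3 (AT2G33810), SPL4 (AT1G53160), SPL5 (AT3G15270), SPL6 (AT1G69170), SPL9 (AT2G42200), SPL10 (AT1G27370), SPL11 (AT1G27360), SPL13 (AT5G50570) and SPL15 (AT3G57920), found by these locus identifiers. They make 10 of the 23874 genes that had at least 1 read in a library. The study made reciprocal hybrids of the accessions Col-0 and Cvi-0 and asked, at 3 stages, how much RNA each gene has and how much of it comes from each parental allele. Its 6 groups, with 1 poly(A) RNA library each, are embryos of the 1-cell/2-cell stage, of the 8-cell stage and of about the 32-cell stage, each from a Col-0 x Cvi-0 cross and from the reverse, Cvi-0 x Col-0. Each library was made from a pool of 20 embryos dissected about 40, 64 and 78 hours after pollination at the respective stages. All embryos are F1 hybrids with no mutation or treatment, and the parent named first was taken as the mother.

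SPL proteins are plant transcription factors that bind DNA through a conserved SBP domain. In seedlings miR156 is abundant, pairs with SPL mRNAs and leads to their cleavage or poor translation. As the shoot ages miR156 declines and SPL proteins promote adult leaves and flowering. In embryos that lack the enzyme DICER-LIKE1, which makes microRNAs, SPL10 and SPL11 are known to be among the targets that accumulate early, together with transcripts that normally appear only late in seed development.

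The microRNA and the sites are shown first because the members are defined by this pairing. Sequences are RefSeq's for TAIR10.1, written 5′ to 3′. The loci MIR156a to MIR156f give 1 mature sequence of 20 bases, with its seed (bases 2 to 8) in capitals, and the capitals in each site mark the bases opposite that seed, positions 13 to 19 counted from the site's 5′ end.
miR156a to miR156f: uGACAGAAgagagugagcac
Site of SPL2, SPL6, SPL9, SPL10, SPL11, SPL13 and SPL15: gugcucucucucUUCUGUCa
Site of SPL3: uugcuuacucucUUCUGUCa
Site of SPL4: cugcucucucucUUCUGUCa
Site of SPL5: ccgcucucucucUUCUGUCa

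Against a perfect complement of miR156a, 7 members shared 1 site with a single difference, A7U (complement base, position in the site, site base). SPL3 differed by G1U and C6U, SPL4 by G1C and A7U, and SPL5 by G1C, U2C and A7U. All 10 sites had 0 mismatches opposite the seed. Among transcripts of 27440 genes, 12 (0.0437%) held a stretch with at most 3 mismatches, namely the 10 members, AT5G50670 (SPL13B, a second copy of SPL13) and AT3G47170. The best stretches in the other SPL genes, SPL1, SPL7, SPL8, SPL12, SPL14 and SPL16, had 6 to 8 mismatches. A match of letters is a description and was not read as cleavage, since no small RNA was measured here.

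The site lies in the last exon of every member. It is coding in 7 members and in the 3′ UTR of SPL3, SPL4 and SPL5, where its first base is base 50, 10 and 7 after the coding region. SPL10 (minus strand, TAIR10.1 chr1:9505112-9508542, site at chr1:9505541-9505560 in exon 4) and SPL11 (plus strand, chr1:9500892-9504023, site at chr1:9503618-9503637 in exon 4) are neighbours with 1088 bases and 0 genes between them. SPL2 lies at chr5:17360287-17363880 on the minus strand, with its site in exon 5 at chr5:17360758-17360777. The gene for SPL3 is on the plus strand at chr2:14305001-14306072, with the site at chr2:14305878-14305897 in exon 2, and SPL15 on the minus strand at chr3:21444243-21446035, with the site at chr3:21444834-21444853 in exon 3. RefSeq also annotates miR156i and miR156j as the exact reverse complements of the SPL4 and SPL9 sites, on the opposite strand of those genes.

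**Figure D1:**
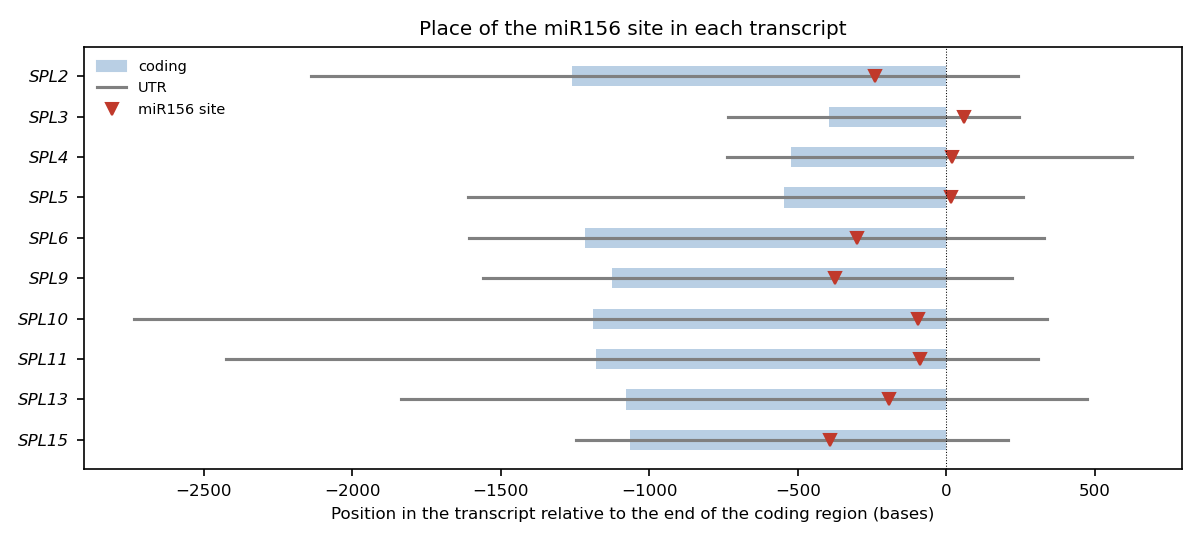
Place of the miR156 site (triangle) in the transcript of each member, in bases from the end of the coding region (bar, coding; line, UTR; RefSeq TAIR10.1). The site is coding in 7 members and lies just past the coding region in SPL3, SPL4 and SPL5.

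Libraries held 10299142 to 14805499 reads assigned to genes, and 18831 to 20575 genes had reads. The listed embryo markers were high (6 of 6 with reads in every library, summed level 799 to 3843 RPM, reads per 1000000 mapped reads). The highest of them had a mean of 1333 RPM. Suspensor markers summed to 39.6 to 181 RPM, seed coat markers to 43.4 to 128 RPM and endosperm markers to 12.2 to 52.2 RPM. These lists hold 6, 2, 7 and 9 genes in that order, so their sums do not measure the purity of the embryos. Alleles at 3 of 5 seed coat markers tested were maternal in excess (edgeR quasi-likelihood test), against 0.129% of all genes tested. How much these cells add to the SPL values was not tested. With 1 library per group there is no replicate check. P-values below measure the spread left when the crosses serve as repeats for a stage and the stages as repeats for a cross, which may be technical.

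The 3 members with a site in the 3′ UTR encode small SPL proteins known to promote flowering and floral meristem identity. SPL3 was read at 12.6 RPM in 1-cell/2-cell Cvi-0 x Col-0 embryos and at 0.315 RPM in the reciprocal 1-cell/2-cell library. At the 8-cell stage it had 1.48 RPM with a Cvi-0 mother and 0 reads with a Col-0 mother, and at the 32-cell stage 0.901 and 0.0615 RPM. The Cvi-0 x Col-0 library was the higher at all 3 stages, and 1 library, that of 162 reads, held most of the gene's reads. SPL5 showed the same order at far lower values, with 8, 2 and 1 reads in the Cvi-0 x Col-0 libraries from young to old (0.621, 0.135 and 0.0601 RPM) and 0 in the other 3. AT3G15260 overlaps SPL5 on the opposite strand and had 13 to 35.8 RPM, highest in the library with most SPL5 reads, and its part in them was not tested. SPL4 had 6 reads in 8-cell Cvi-0 x Col-0 embryos (0.405 RPM) and 0 elsewhere. A count of 0 allows up to 3 reads, which is 0.18 to 0.248 RPM in these libraries, and the 8 reads of SPL5 and 6 reads of SPL4 lay above the limits of the reciprocal libraries (0.236 and 0.248 RPM), while the smaller counts of SPL5 did not. Such intervals and limits cover counting error only, since amplified reads are not independent molecules.

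SPL9 and SPL15 are known for the change from juvenile to adult leaves, the pace of leaf initiation and, for SPL15, floral induction. SPL15 had 0 reads in 1-cell/2-cell Col-0 x Cvi-0 embryos and 0.233 RPM in the reciprocal cross, 0.248 and 1.21 RPM at the 8-cell stage, and 2.21 and 2.64 RPM at the 32-cell stage (Col-0 mother first). Both 32-cell libraries were above the 4 younger ones, and within each cross the order followed the stages. By reads alone, scaled by mapped totals, the 32-cell to 1-cell/2-cell ratio was 20.7 (80 against 3 reads, exact 95% interval 6.84 to 103). SPL9 was close to undetected, with 1 and 3 reads in the 32-cell libraries and 0 in the others. In bulk RNA, fewer cells with a transcript and less of it per cell cannot be told apart.

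SPL2, SPL10 and SPL11 act together in leaf shape and shoot maturation. SPL2 had 1.85 and 1.28 RPM at the 1-cell/2-cell stage, 1.61 and 2.7 RPM at the 8-cell stage, and 4.18 and 4.53 RPM at the 32-cell stage, Col-0 mother first. As for SPL15, both 32-cell libraries lay above all others. Their mean was 4.36 ± 0.25 RPM (SD, n = 2 libraries), against 1.57 ± 0.399 RPM at the 1-cell/2-cell stage. The ratio of reads, scaled by mapped totals, was 2.8 (143.5 against 40 reads). Exact 95% intervals were 1.37 to 3.69 for the Col-0 x Cvi-0 cross alone and 2.12 to 6.75 for the reverse.

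SPL10, the member with the highest mean RPM (3.31 ± 1.89, SD, n = 6 libraries), had its highest level, 6.84 RPM, in 1-cell/2-cell Col-0 x Cvi-0 embryos and its lowest, 1.55 RPM, in the reciprocal cross of that stage. The older libraries were between these values, at 1.82 and 3.37 RPM at the 8-cell stage and 2.95 and 3.3 RPM at the 32-cell stage. SPL11 also had its highest level in 1-cell/2-cell Col-0 x Cvi-0 embryos, 2.52 RPM against 1.17 RPM in the reciprocal cross. It had 0.661 and 2.09 RPM at the 8-cell stage and 2.15 and 1.8 RPM at the 32-cell stage. The neighbours SPL10 and SPL11 thus shared the order of the crosses at the 2 younger stages and not at the 32-cell stage. At most 0.407% of their 35-base stretches occur in both, so reads are rarely ambiguous between them.

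SPL6 takes part in immune signalling, and SPL13 in early leaf development. SPL6 had 1.34 and 0.233 RPM at the 1-cell/2-cell stage, 1.98 and 2.02 RPM at the 8-cell stage and 0.891 and 1.83 RPM at the 32-cell stage, again with the Col-0 mother first. Its 8-cell libraries were the highest and nearly alike. SPL13 was seen in 3 libraries, with 8 reads in 8-cell Cvi-0 x Col-0 embryos and 2 and 4 reads at the 32-cell stage. Its values are uncertain, because every one of its 35-base stretches (100% of 2274) also occurs at SPL13B, and the authors kept unique matches only. SPL13B had no listed reads.

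**Figure D2:**
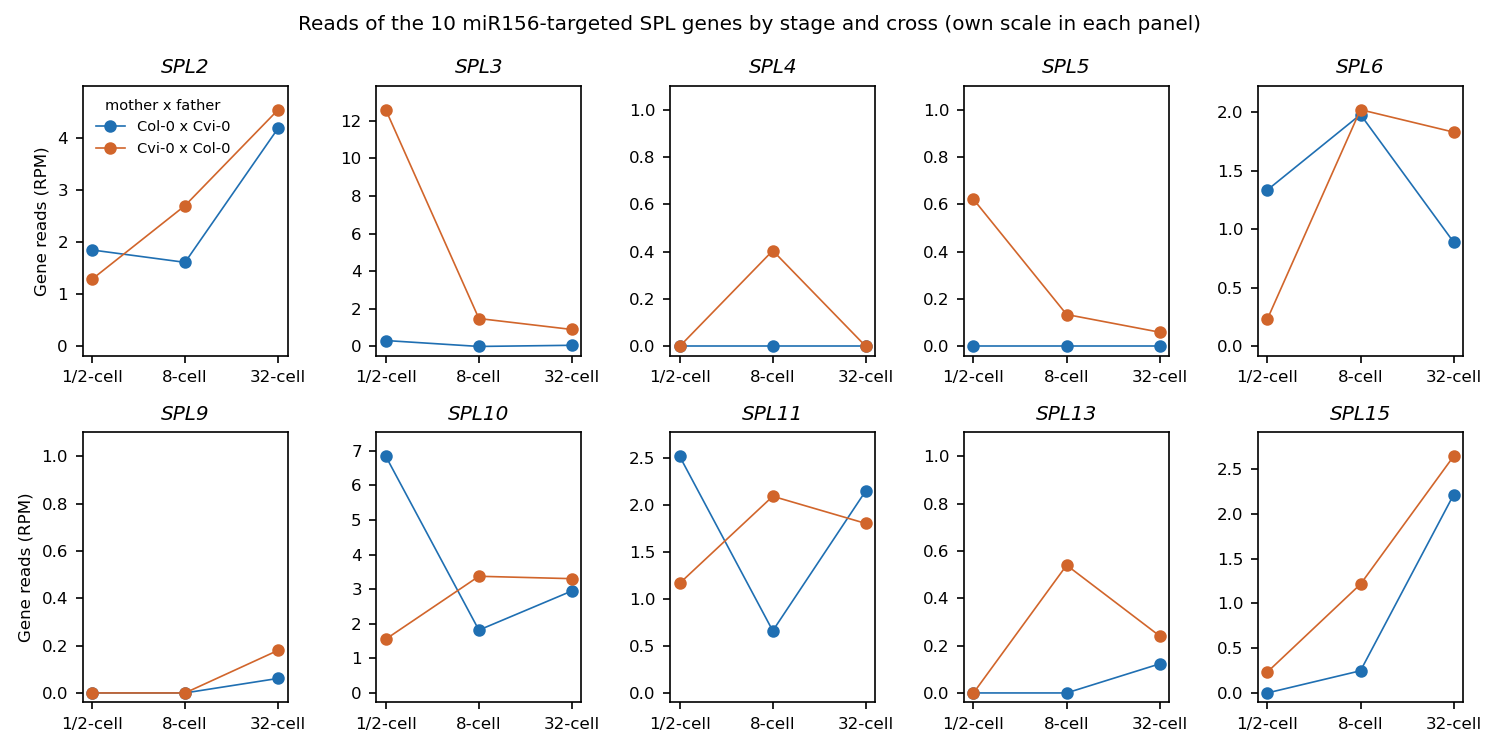
Level of each member in RPM by stage, with the Col-0 x Cvi-0 and Cvi-0 x Col-0 libraries as separate points (1 library each) joined within a cross. SPL2 and SPL15 were highest in both 32-cell libraries, while SPL3 reached 12.6 RPM in a single library.

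To set genes side by side, levels were divided by kilobases of exon. This takes reads to grow with transcript length, which was not checked in these amplified libraries. The order of mean levels was then SPL3 (2.61 RPM per kb), SPL2 (1.13), SPL10 (1.08), SPL15 (0.75), SPL6 (0.715), SPL11 (0.633), SPL5 (0.0727), SPL13 (0.0652), SPL4 (0.0494) and SPL9 (0.0226). Only the step from SPL11 to SPL5, of 9 steps between neighbours, was larger than the SD over libraries of either gene. The first place of SPL3 rests on 1 library: its median over the 6 libraries was 0.62 RPM per kb, below the medians of SPL2 (0.954), SPL10 (1.02), SPL6 (0.819) and SPL11 (0.712). The median over the 10 members was 0.674 RPM per kb, against 3.58 RPM per kb over 22307 genes with reads and a length.

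SPL genes without a miR156 site were read at higher levels. Their median was 4.09 RPM per kb, with a range of means from 0.555 to 5.93. Summed per kb, the 6 genes without a site had 1.99 to 4.23 times the level of the 10 members, by library, and the lowest ratio was that of 1-cell/2-cell Cvi-0 x Col-0 embryos, where SPL3 was high. SPL8, a regulator of pollen sac development, was the exception among them and was singled out after its values were seen. It had 5.63 RPM in that same library, 0.0674 RPM in 8-cell Cvi-0 x Col-0 embryos and 0 reads in the other 4.

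**Figure D3:**
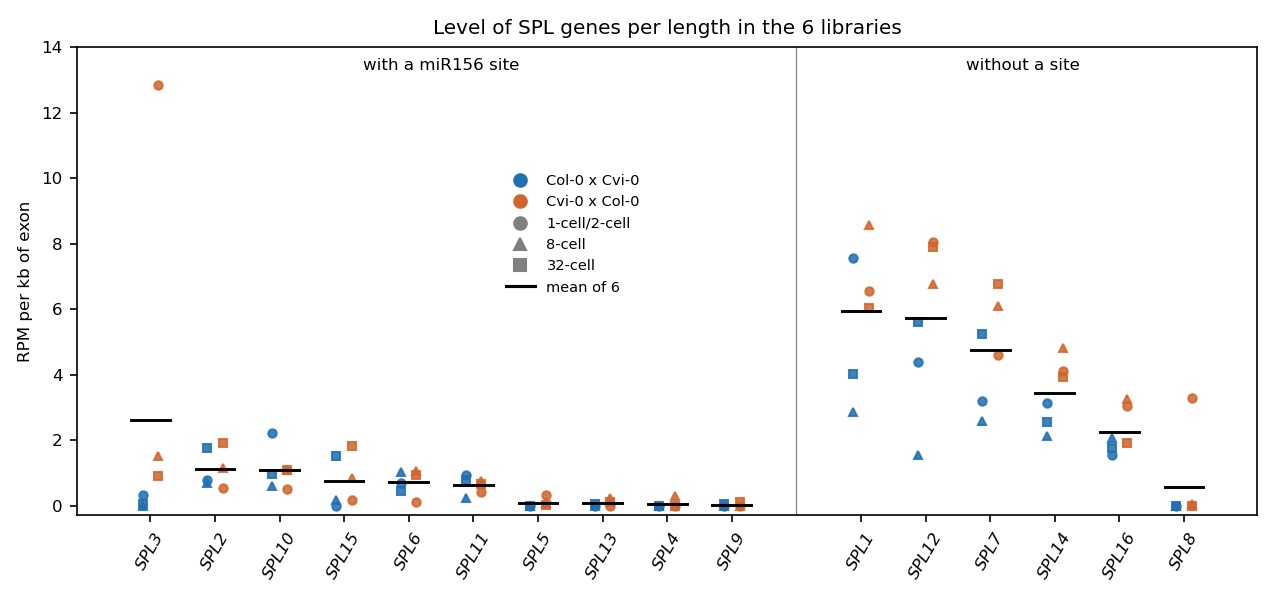
Level of each SPL gene in RPM per kb of exon in the 6 libraries (symbol, stage; colour, cross; bar, mean of 6), for genes with and without a miR156 site. SPL10 reaches 2.23 RPM per kb, the highest library value of any member but SPL3, which reaches 12.8 in 1 library.

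Stages were compared with edgeR's quasi-likelihood test over 17478 genes, with cross as a block and Benjamini-Hochberg adjustment. SPL2, SPL3, SPL6, SPL10, SPL11 and SPL15 passed the filter on low counts. SPL3 did so with most of its reads in 1 library. SPL15 did so with 0 and 3 reads in the 1-cell/2-cell libraries, and could hardly fall from that stage. SPL4, SPL5, SPL9 and SPL13 were not tested. Between the 1-cell/2-cell and 8-cell stages 0 of the 6 members passed an adjusted p of 0.05, against a background of 1.1% of genes, and 1 member had an unadjusted p below 0.05 (13% of genes). Between the 8-cell and 32-cell stages 0 members passed (background 0% of genes), with 0 members at an unadjusted p below 0.05 (11.8% of genes). Between the 1-cell/2-cell and 32-cell stages 0 members passed (background 7.78%), with 2 members, SPL3 and SPL15, at an unadjusted p below 0.05 (26.5% of genes). DESeq2 called 0, 0 and 1 members in these 3 comparisons, the last being SPL15, and called 4.63%, 3.68% and 17.2% of all genes. The 1 of 6 members called by DESeq2 and the 2 of 6 at an unadjusted p are thus near the share of all genes.

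The largest fitted stage change was that of SPL15, with a log2 change of 4.89 ± 1.65 (SE) between the 1-cell/2-cell and 32-cell stages and an adjusted p of 0.112 in edgeR and 0.0337 in DESeq2, within 0.0337 to 0.72 over 11 alternatives. The 2 steps within it were 2.71 ± 1.56 and 2.18 ± 1.41. On the opposite strand AT3G57910 overlaps SPL15, and counting by strand is not stated. AT3G57910 had 6.19 to 12 RPM and was highest in 1-cell/2-cell Cvi-0 x Col-0 embryos, where SPL15 had 3 reads. The part of AT3G57910 in the SPL15 reads was not tested. SPL2 had a log2 change of 1.62 ± 0.81 over the same interval (edgeR adjusted p = 0.248). Its value stayed between 1.29 and 2.03 in 11 alternatives.

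SPL3 had a log2 change of -3.11 ± 1.13 between the 1-cell/2-cell and 8-cell stages (edgeR adjusted p = 0.301) and of -3.26 ± 1.19 between the 1-cell/2-cell and 32-cell stages (adjusted p = 0.133). The estimates for SPL6 (1.65 ± 1.27 to the 8-cell stage) and for SPL10 (-0.35 ± 0.92) and SPL11 (-0.27 ± 1.12) over that step were small beside their SE or near it in edgeR, with adjusted p-values of 0.643, 0.921 and 0.954. For SPL10 the value to the 8-cell stage became 0.98 without the youngest Col-0 x Cvi-0 library, in which it was highest.

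**Figure D4:**
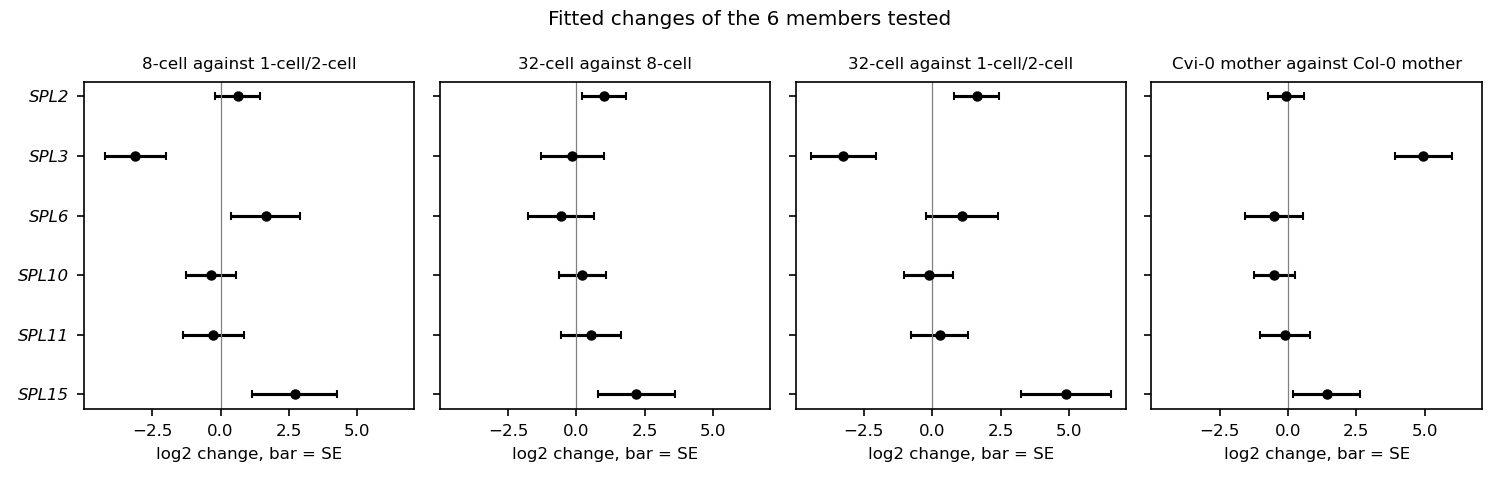
Fitted log2 change with its SE for the 6 members tested, in 3 stage comparisons and between the crosses (edgeR). SPL15 and SPL2 lie above 0 in each stage comparison, and the largest value is that of SPL3 between the crosses, 4.95.

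The crosses were compared in the same fit, with stage as a block. By RPM, 48.4%, 66.4% and 63.8% of all genes with reads were higher with a Cvi-0 mother, from young to old. SPL3 stood out, with a log2 difference of 4.95 ± 1.03 (Cvi-0 mother over Col-0 mother), higher in 3 of 3 stages. Its unadjusted p was 0.00152 and its adjusted p 0.83 in edgeR, and DESeq2 gave an adjusted p of 0.0211, the lowest of 11 alternatives, which reached 1. By edgeR 0 of 6 members passed (background 0.00572% of genes) with 1 at an unadjusted p below 0.05 (5.68% of genes), and by DESeq2 1 member passed, SPL3 (0.28% of genes). By reads alone, SPL3 had 199 reads with a Cvi-0 mother and 5 with a Col-0 mother. The ratio scaled by mapped totals was 40 at the 1-cell/2-cell stage (interval 15.3 to 149), at least 5.99-fold higher against a limit of 3 reads at the 8-cell stage, and 14.7 at the 32-cell stage (15 against 1 read, interval 2.25 to 617). SPL3 reads carry no parental assignment, because 0 reads covered a listed variant.

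No other tested member had a cross difference above 1.41 on the log2 scale, which was that of SPL15 (± 1.22, higher with a Cvi-0 mother in 3 of 3 stages). The log2 differences were -0.51 ± 1.05 for SPL6, -0.5 ± 0.76 for SPL10, -0.12 ± 0.91 for SPL11 and -0.09 ± 0.65 for SPL2, and the last 2 turned positive when scaled by the authors' mapped totals. Members with reads in Cvi-0 x Col-0 embryos alone were SPL5 and SPL15 at the 1-cell/2-cell stage, SPL3, SPL4, SPL5 and SPL13 at the 8-cell stage and SPL5 at the 32-cell stage. No member had reads in the Col-0 x Cvi-0 library alone at any stage. Of all genes with reads at a stage, 5.69%, 11.8% and 7% had reads with the Cvi-0 mother alone and 8.95%, 3.8% and 5.8% with the Col-0 mother alone, from young to old, and the 8-cell Col-0 x Cvi-0 library had the fewest genes with reads.

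The level of SPL3 in 1-cell/2-cell Cvi-0 x Col-0 embryos was 8.48 times its next highest library. Among 13184 genes with at least 100 reads in some library, 75 (0.569%) had a ratio as large, and 5 of these were highest in that same library, against 54 in the reciprocal one of that stage. Chosen after their values were seen, they are SPL3, PEPC1 (10.2 RPM), PS2 (31.4 RPM), PHT1;7 (15.8 RPM) and AT5G41390 (10.5 RPM). PHT1;7 is a phosphate transporter, and PEPC1 and PS2 encode phosphatases known to be induced when phosphate is short. In that library the summed suspensor markers were at 181 RPM, the highest suspensor sum of the 6. Seed coat markers summed to 50.7 RPM and endosperm markers to 45.3 RPM, below their highest sums of 128 and 52.2 RPM in other libraries. Of 9 endosperm markers 5 had reads in the library where SPL3 was high, and the endosperm regulators FWA, PHE1, ZOU and MINI3 were at 0. The endosperm markers AGL62 (2.72 RPM) and IKU2 (1.44 RPM) and the seed coat marker TT2 (2.56 RPM) had their highest level of the 6 libraries there. So did 14 of 51 other listed genes with reads, so such a peak is not particular to these markers. The part of the markers in the SPL3 level was not tested. An antisense RNA gene, AT2G33815, overlaps SPL3, and had 0.85 RPM in that library and 1.02 RPM in the reciprocal one.

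Allele reads are reads over positions where Col-0 and Cvi-0 differ, and of the 10 members SPL2 alone had enough for a test. SPL6 had 1 Col-0 read in each 32-cell library, and the other 8 members had none, whereas 66.3% of all genes with reads had some. SPL2 had 168 allele reads in all, 83 maternal and 85 paternal (49.4% maternal, exact 95% interval 41.6 to 57.2).

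By stage, SPL2 reads were 78.6% maternal in 1-cell/2-cell embryos (33 of 42, interval 63.2 to 89.7), 35.1% at the 8-cell stage (13 of 37, interval 20.2 to 52.5) and 41.6% at the 32-cell stage (37 of 89, interval 31.2 to 52.5). The maternal reads in 1-cell/2-cell embryos were 14 of 21 with a Col-0 mother and 19 of 21 with a Cvi-0 mother. The latter library had 16.5 gene reads of SPL2, fewer than its 21 allele reads. These tallies thus disagree there, and the cause was not tested. At the 8-cell stage the maternal reads were 3 of 5 and 10 of 32, and at the 32-cell stage 15 of 34 and 22 of 55. Over all variants, both 1-cell/2-cell libraries had more maternal than paternal reads, while the 8-cell libraries lay on opposite sides of an even share and both 32-cell libraries were below it. Early maternal excess was not particular to SPL2. Without a miR156 site, SPL7 (66.7%), SPL1 (64.5%) and SPL12 (63.9%) were also mostly maternal in 1-cell/2-cell embryos. At the 32-cell stage these 3 were at 54.5%, 46.1% and 51%. SPL14 went the other way, with 40.2% and 37.9% at these stages. SPL8 had 3 allele reads in all and SPL16 had 0.

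**Figure D5:**
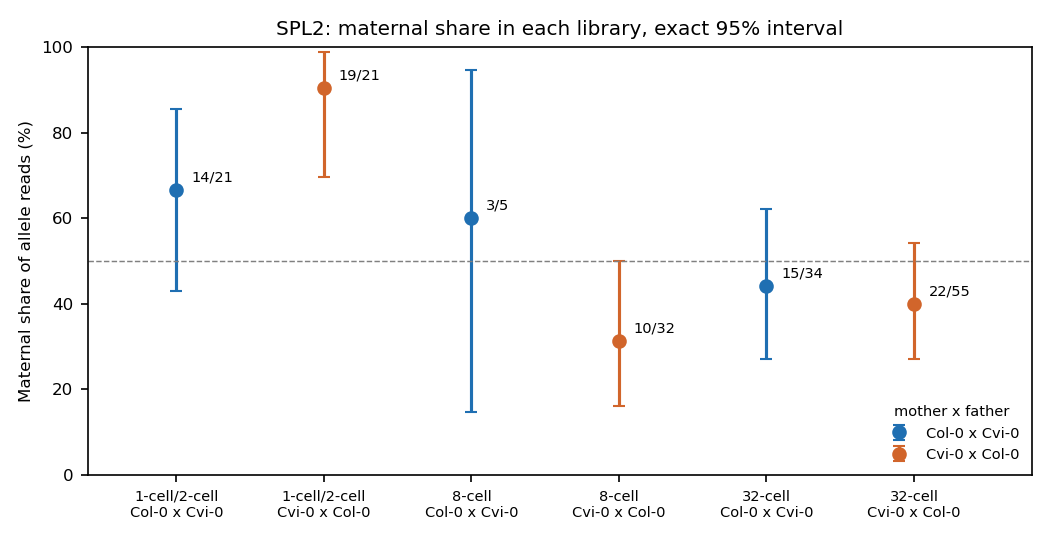
Maternal share of SPL2 allele reads in each library, in percent, with exact 95% intervals and the maternal and total reads beside each point. The share is 66.7% and 90.5% in the 1-cell/2-cell libraries and 44.1% and 40% in the 32-cell libraries.

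In edgeR's test of maternal against paternal reads over 6988 genes, SPL2 had a log2 ratio of 0.23 ± 0.53 over all stages (adjusted p = 1), and 0 members passed (background 0.129%). At an unadjusted p below 0.05 there were 0 members (4.31% of genes), and 0 by DESeq2 (0.315% of genes). At the 1-cell/2-cell stage the log2 ratio of SPL2 was 1.93 ± 0.91 (unadjusted p = 0.0524, adjusted p = 0.861, background 0.143%). At the 8-cell and 32-cell stages the log2 ratios were -0.61 ± 0.97 and -0.47 ± 0.78 (edgeR adjusted p = 1 for both, backgrounds 0.1% and 0.0429%). The change of the maternal share between stages was not tested. For Col-0 against Cvi-0 alleles the log2 ratio of SPL2 was 0.1 ± 0.53 (edgeR adjusted p = 0.929). There 0 members passed against a background of 20.5%, with 0 at an unadjusted p below 0.05 (32% of genes) and 0 by DESeq2 (19.2% of genes).

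Reads of SPL2 fell on 29 variants, 7 of them with both alleles. A single variant gave 85 of the 168 reads, 35 Col-0 and 50 Cvi-0 (41.2% Col-0, interval 30.6 to 52.4), while the other 28 together gave 54 Col-0 and 29 Cvi-0 reads (65.1% Col-0, interval 53.8 to 75.2). At that variant 65.9% of reads were maternal over all libraries, and 32.5% at the others. The low number of maternal reads at the older stages therefore depends on which variants are counted, and at the main variant the maternal share was 57.9% (interval 33.5 to 79.7) at the 8-cell and 61.3% (interval 42.2 to 78.2) at the 32-cell stage. At the 1-cell/2-cell stage the maternal excess in the Col-0 x Cvi-0 library depends on this too. There the main variant had 7 maternal and 7 paternal reads. In the reverse cross it had 19 and 2, the whole allele tally of that library.

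The loci that encode the microRNA were examined next. Of 12 MIR156 and MIR157 loci listed, 3 had reads in the deposited tables. MIR156C, a main source of miR156 in seedlings, had 6.29 and 15.2 RPM at the 1-cell/2-cell stage, 4.38 and 12.6 RPM at the 8-cell stage, and 9.74 and 10 RPM at the 32-cell stage, Col-0 mother first. Its primary transcript was higher with a Cvi-0 mother in all 3 stages, by a log2 difference of 0.77 ± 0.44 that did not pass (edgeR adjusted p = 0.83). By RPM, so were 66.4% and 63.8% of all genes with reads at the 8-cell and 32-cell stages. MIR156A reached at most 0.743 RPM. These are poly(A) precursors, and the mature microRNA was not measured.

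All 10 listed genes of microRNA synthesis and action had reads in every library, and 0 passed in any stage or cross comparison by edgeR, with 3 at an unadjusted p below 0.05 between the 1-cell/2-cell and 32-cell stages (26.5% of all genes) and 0 called by DESeq2. AGO1, which carries most microRNAs, was read at 148 to 288 RPM, and AGO10, which binds miR165 and miR166, at 63.3 to 148 RPM.

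Genes targeted by other microRNAs gave a different count. Of 18 listed, 16 were tested, and between the 1-cell/2-cell and 32-cell stages 7 rose and 0 fell (edgeR), where 4.18% of all genes rose and 3.6% fell. Their median log2 change was 1.79, against 0 over all genes tested. CUC1, CUC2, ATHB8 and TCP24 had at most 2.5 reads in either 1-cell/2-cell library. They passed the low-count filter through older libraries and could hardly fall, so the split and the median lean upward. CUC2, a boundary gene targeted by miR164, had 0 reads in both 1-cell/2-cell libraries and 9.1 and 6.88 RPM in the 32-cell libraries, at least 68-fold higher against 3 reads over the group (adjusted p = 0.0376). CUC1, its homologue, went from 2 reads to 54.9 and 16.2 RPM, a ratio of reads scaled by mapped totals of 452 with an interval of 125 to 3733 (edgeR adjusted p = 0.0307). ATHB8 (adjusted p = 0.0406) and PHV (adjusted p = 0.0247), HD-ZIP III genes targeted by miR165 and miR166, had log2 changes of 5.17 ± 1.18 and 3.45 ± 0.67 in edgeR. Without the 32-cell Col-0 x Cvi-0 library CUC2 (adjusted p = 0.0735), PHV (0.182) and ATHB8 (0.102) lost their calls in edgeR, and CUC1 kept its call in all 11 alternatives. Whether the SPL members differ from these targets was not tested.

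Genes known as outputs of SPL proteins in the shoot, with MIR172 and its targets, were mostly near the limit of detection. Of 15 listed, 5 were tested, and 0 passed in any stage or cross comparison by edgeR or DESeq2. At an unadjusted p below 0.05 in edgeR there were 3 between crosses (5.68% of all genes) and at most 2 in a stage comparison (11.8% to 26.5% of all genes). AP2, a miR172 target that represses flowering, had 13.6 to 54.4 RPM and a log2 difference of 0.82 ± 0.26 between crosses (edgeR adjusted p = 0.83). TOE2, a related repressor, had 3.55 to 11.6 RPM and a log2 difference of 1.18 ± 0.41 between crosses (edgeR adjusted p = 0.83).

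Among SPL genes without a miR156 site 5 of 6 were tested for stage and cross, and 0 passed in edgeR or DESeq2. In edgeR 1 had an unadjusted p below 0.05 between crosses (5.68% of all genes) and 0 between stages (11.8% to 26.5%). In SPL14, known for sensitivity to a fungal toxin, Col-0 alleles were in excess by a log2 ratio of 1 ± 0.33 (edgeR adjusted p = 0.0487). It was the 1 call among 4 of these genes tested for alleles. Of all genes tested, 20.5% passed, 13.7% with Col-0 higher, so this count is near the share of all genes. The call rests on the settings, with an adjusted p of 0.0715 in DESeq2 and of 0.0233 to 0.165 over 10 alternatives. It was lost when any one library but the youngest Col-0 x Cvi-0 one was left out.

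The 5 genes whose RPM followed SPL10 most closely over the 6 libraries, among 12225 with a mean of at least 5 RPM, were AT4G02110 (Pearson r = 0.994), AT5G37480 (r = 0.989), AT5G38380 (r = 0.989), AT5G05330 (r = 0.987) and UREF, AT1G21840 (r = 0.979). All 5 were highest in 1-cell/2-cell Col-0 x Cvi-0 embryos, as SPL10 was, which largely follows from their choice by likeness to it. AT4G02110 had 46.6 RPM there against 11.2 RPM in the reciprocal cross. For SPL15, chosen after its values were seen, the closest were the homeobox gene HB24 (r = 0.999), OEP37 (r = 0.998), AT5G01090 (r = 0.996), HMGA (r = 0.996) and BGAL1 (r = 0.993). HB24 had 1.49 and 2.49 RPM at the 1-cell/2-cell stage, 2.39 and 6.41 RPM at the 8-cell stage and 9.47 and 11.5 RPM at the 32-cell stage. With 6 libraries and 12225 genes compared, such values are descriptions and say nothing of shared control.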

How the data were processed

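In all, 6 poly(A) RNA libraries (1 per group) were analysed. Per the series' design text, RNA was amplified linearly, strand-specific reads were mapped with Bowtie to the TAIR10 Col-0 genome and transcript models and to copies carrying Cvi-0 variants, and only perfect, unique matches were kept. The Bowtie version, the counting program and whether strand was used to count: not given in the sources used here. The tables deposited by the authors hold counts of allele reads and estimated counts of all reads per gene (31.7% not whole, so rounded for fits), per the file headers. They also hold RPM, which the authors scaled to all mapped reads. A further 24 columns, such as allele values as RPM, were not used. Perfect matching to an edited genome can lose Cvi-0 reads with unlisted variants, and unique matching loses reads of duplicated genes.

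Gene reads (filterByExpr, TMM factors 0.855 to 1.11) were fitted on stage and cross with edgeR 4.0.16 under R 4.3.3, beside limma 3.58.1. Allele reads were fitted on library, genotype and parent where they averaged 10 or more a library, offset by the library's allele total. The expression and per-stage parent fits left 2 residual degrees of freedom and the all-stage parent fit 4, and the biological coefficient of variation 42.9% and 30.9%. The SE is the log2 value over the square root of F, adjustment was Benjamini-Hochberg with a threshold of 0.05, and scripts were tested on simulated data. DESeq2 1.42.0, other scalings and filters, no block, and each library left out were alternatives. Intervals are exact 95% (Clopper-Pearson, scipy 1.17.1), on rounded reads for ratios. Ratios of reads divide each count by the mapped total of its libraries. Transcripts and lengths are of the RefSeq model with the longest coding part (TAIR10.1), and all 96 listed loci matched it. Stretches of 35 bases were used for shared sequence. Members and lists were chosen with earlier results of these data known. Genes named beside the members were, per list, up to 4 past the threshold by size of log2 change, or else the 2 of highest mean RPM, with the 5 most like SPL10 by Pearson r of log2(RPM + 0.5).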

Additional observations from a re-analysis of the deposited data

Results flagged for a closer look

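SPL10 went opposite ways in the reciprocal crosses from the 1-cell/2-cell stage onward, each beyond counting error (at least 10 reads on average). Between the 1-cell/2-cell and 8-cell stages its ratio of RPM was 0.265 in Col-0 x Cvi-0 embryos (22 against 87 reads, interval 0.158 to 0.428) and 2.17 in Cvi-0 x Col-0 embryos (50 against 20 reads, interval 1.27 to 3.85). Between the 1-cell/2-cell and 32-cell stages the ratios were 0.431 (interval 0.297 to 0.62) and 2.13 (interval 1.25 to 3.74). The difference between the crosses was not tested, as each rests on 1 library per stage, and both pairs share the 1-cell/2-cell libraries. These intervals cover counting error only, since amplified reads are not independent molecules. How many of all genes meet the same rule was not counted. SPL10 was highest in the youngest library with a Col-0 mother. That library also held the peak of 54 of the 75 genes whose ratio of highest to next library was as large as that of SPL3.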

How the results depend on the processing

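Over 9 comparisons, the count of members past the threshold was 0 and stayed so in 89 of 91 recomputations. The exceptions were DESeq2 with 1 member between the 1-cell/2-cell and 32-cell stages (SPL15) and 1 between crosses (SPL3). Of 311 recomputed member values, 309 kept their side of the threshold. Leaving out each library gave 0 to 0 members in every comparison. SPL10 and SPL11 changed sign when single libraries were left out: between -1.41 and 0.98 for SPL10, and between -1.47 and 0.7 for SPL11, between the 1-cell/2-cell and 8-cell stages. For SPL3 between crosses the range was 4.52 to 5.58. Scaling by the authors' mapped total moved the median of all genes between crosses to 0.21 from 0.04, and that of the 8-cell and 32-cell stages against the youngest to -0.15 and -0.14. Of the other targets, CUC1 stayed called in all 11 alternatives, while CUC2, PHV and ATHB8 lost the call without the 32-cell Col-0 x Cvi-0 library (adjusted p = 0.0735, 0.182 and 0.102), PHV and ATHB8 also without the youngest Col-0 x Cvi-0 library, and ATHB8 without either 8-cell library. The call of SPL14 was lost in 8 of 10 alternatives.

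Counting SPL2 reads at the variant with most reads alone, chosen after seeing the data, moved the maternal share to 65.9% over all libraries, 57.9% at the 8-cell and 61.3% at the 32-cell stage, and the cause was not tested. Summed over variants, SPL2 had the same 168 reads as its deposited allele tallies. In 1-cell/2-cell Cvi-0 x Col-0 embryos its 21 allele reads exceeded its 16.5 gene reads. With coding length in place of exon length the members' median was 1.08 RPM per kb, since the divisor is shorter. The allele fits compare both alleles within each library through the library term. For gene reads, with 1 library per group, pairing went no further than the cross and stage terms of the fits. Without those terms 0 members passed in each of the 4 comparisons. Depth limits SPL4, SPL5, SPL9 and SPL13, with at most 14 reads each in all libraries.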
